A study of Schizosaccharomyces pombe with 8 samples.

Results

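The 5 genes map1 (SPAC11E3.06), map2 (SPCC1795.06), map3 (SPAC3F10.10c), map4 (SPBC21D10.06c) and sxa1 (SPAC26A3.01) are the genes that mark the P cell, one of the mating types of the fission yeast Schizosaccharomyces pombe. They were picked by their systematic names, with no cutoff on their signals but with earlier results of these data known. They are among 4940 genes measured on NimbleGen arrays labelled with a single dye, and each was read by 14 probes. Their signals were compared in 4 strains, each measured on 2 arrays that came from separate cultures, grown in YES, a rich medium, at 30 °C for 8 hours, to logarithmic phase. All cultures were of mating type h+, the type whose cells are P cells. Each strain carried leu1-32 together with ura4-D18, a deletion of ura4, and the labels give PR110, the wild type, as the strain background of every sample. In YMP37 pka1 was disrupted with ura4, in YMP41 cgs1 was disrupted with ura4, and in OG1 ppt1 was disrupted with kanMX6. Of these genes, pka1 codes for the catalytic subunit of PKA, the cAMP-dependent protein kinase, cgs1 for the regulatory subunit that inhibits it, and ppt1 for an enzyme of coenzyme Q synthesis.

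Mating in fission yeast joins a P cell and an M cell. A P cell secretes P-factor, a peptide pheromone, and senses the M-factor of its partner with a receptor on its surface, and the M cell carries the matching ligand and receptor the other way round. Mating genes are in general switched on by nitrogen starvation through the transcription factor Ste11, and PKA activity holds Ste11 down. The mating-type locus decides which of the 2 sets, P or M, a cell can express. Map1 is the regulator of P-cell transcription, map2 encodes the precursor of P-factor, map3 the M-factor receptor, map4 a surface adhesin of P cells, and sxa1 an aspartic protease. The cultures here were in rich medium with no mating partner named in the labels. Even so, sxa1 read near the top of the scale on every array. An array averages over all cells of a culture, so a change in the share of expressing cells and a change in RNA per cell cannot be told apart.

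Array medians lay between 21210 and 22148 on slide 1, which held replicate 1 of every strain, and between 24677 and 25548 on slide 2. The targeted gene cgs1 was at least 9.57-fold lower in Δcgs1 than in wild type, ppt1 was at least 14.8-fold lower in Δppt1, and ura4 was at least 14.0-fold higher in the arrays labelled Δpka1 and at least 16.9-fold higher in Δcgs1. Signal for pka1 itself was not lower, at 38387 and 46832 in the arrays labelled Δpka1, against 28743 and 34715 in wild type (log2 fold change 0.42, SE 0.16, adjusted p = 0.164, and adjusted p = 0.00493 with slide as a block in the model). The sources used here do not give the positions of its probes, so the disruption could not be checked in these arrays. Signals for ura4 (32716 and 37383), cgs1 (46361 and 54252) and ppt1 (29176 and 35838) do set these arrays apart from the other strains. That pka1 is disrupted in them, and with it every direction drawn for its loss, rests on their label. The highest signal of a disrupted gene in its own disruptant, or of ura4 in strains without it, was 2497. It was taken as the limit below which a signal cannot be told from background. This limit rests on a single reading, that of ppt1 in Δppt1 on slide 1. On slide 2 ppt1 read 1910 in Δppt1, and cgs1 read 1404 and 1360 in Δcgs1. The random-sequence control ran from 821 to 1268. On slide 2 the map1 signals of Δcgs1 and Δppt1, given below as at background, lay above 1910. Calls rest on limma's moderated test with Benjamini-Hochberg adjustment over 4940 genes, at an adjusted p below 0.05.

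Signals of M-cell genes were read as a check of the labelled mating type. Of 6 such markers, mfm2, which encodes an M-factor precursor, was at or below the limit on all 8 arrays, and the other 5 were above it on every array. The 6 summed to 51813 and 54027 in the arrays labelled Δpka1, 49457 and 56449 in Δcgs1, 42017 and 49044 in Δppt1, whereas wild type had 42464 and 52370. The silent M cassette genes mat3-Mc and mat3-Mi, added to the check after their values were seen, were at or below the limit on all 8 arrays, between 836 and 1604 for mat3-Mc and between 530 and 641 for mat3-Mi. They share sequence with the M genes of the active locus. All 5 P-cell genes were above the limit in wild type and in the arrays labelled Δpka1, while map1 was below it in Δcgs1 and Δppt1. The P genes of the mating-type locus were not analysed here. No h- culture was measured to set these signals against, so the check does not decide the mating type, which rests on the labels.

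Against wild type, 3 of the 5 P-cell genes rose in the arrays labelled Δpka1, namely map2, map1 and map3, and none fell. In the same comparison 4.33% of all 4940 genes were called higher. The median log2 fold change of the 5 genes was 0.97 and that of all genes was -0.04. With slide as a block in the model, map4 was called as well, which made 4 of 5 genes, where 14.7% of all genes were called higher. These strains also differ by ura4, which only the disruptant carries in working form, so ura4 and the disruption of pka1 cannot be told apart in this comparison.

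**Figure D1:**
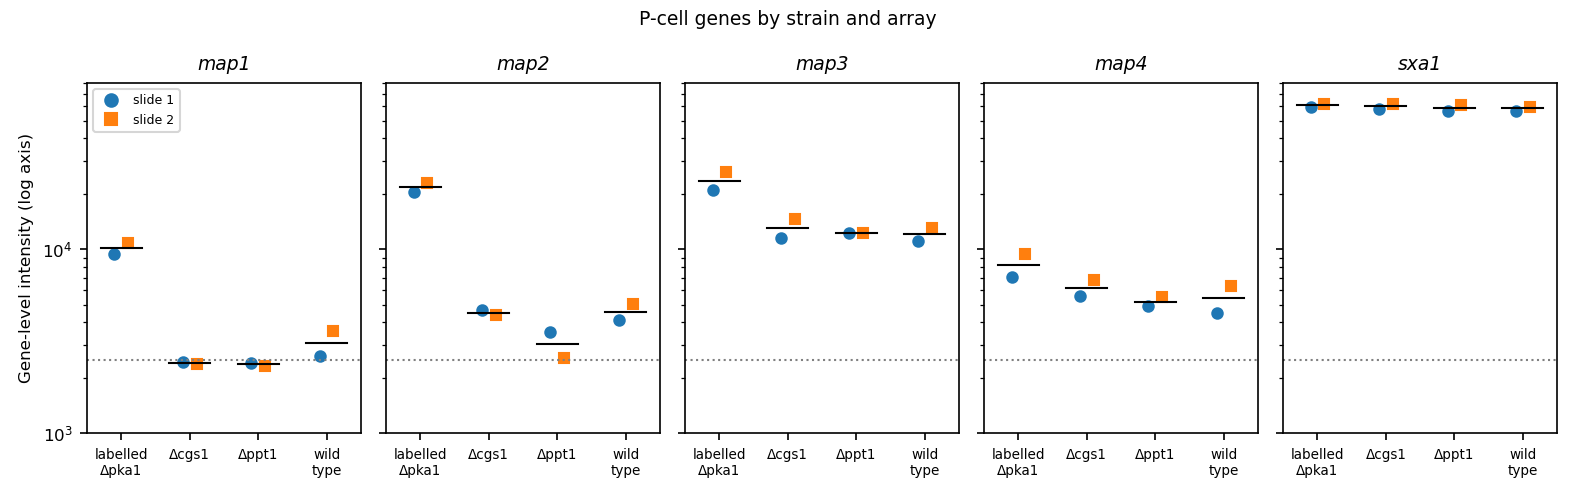
Gene-level intensity (log axis) of the 5 P-cell genes on each array, by strain, with circles for slide 1, squares for slide 2 and a bar for the mean of the 2 arrays. The dotted line is the background limit of 2497. In the map1, map2, map3 and map4 panels both arrays labelled Δpka1 lie above every other array, and in the sxa1 panel all 8 arrays lie between 56652 and 61858.

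The regulator gene map1 read 9454 and 10803 in the arrays labelled Δpka1, 2453 and 2388 in Δcgs1, 2416 and 2323 in Δppt1, whereas wild type had 2629 and 3578. Only the arrays labelled Δpka1 were well above the background limit, and the wild-type arrays lay just above it. The rise over wild type was 1.72 on the log2 scale, or 3.3-fold (SE 0.16, adjusted p = 0.000991). It was 1.85 on slide 1 and 1.59 on slide 2, and the groups did not overlap.

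The pheromone gene map2 showed the largest rise of the 5. Its signal read 20398 and 22915 in the arrays labelled Δpka1, 4659 and 4402 in Δcgs1, 3571 and 2552 in Δppt1, whereas wild type had 4116 and 5046. The arrays labelled Δpka1 stood far above the other 6, among which Δcgs1 and wild type overlapped and Δppt1 was lowest. The rise over wild type was 2.25 on the log2 scale, or 4.74-fold (SE 0.18, adjusted p = 0.000598), with 2.31 on slide 1 and 2.18 on slide 2. Among all 4940 genes, ordered by log2 fold change from the highest down, map2 was number 34 and map1 number 53 in this comparison.

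The receptor gene map3 read 20927 and 26247 in the arrays labelled Δpka1, 11467 and 14619 in Δcgs1, 12195 and 12317 in Δppt1, whereas wild type had 11071 and 12998. The arrays labelled Δpka1 were again the highest, and the other 3 strains overlapped each other. The rise over wild type was 0.97 on the log2 scale, or 1.95-fold (SE 0.17, adjusted p = 0.0165), with 0.92 on slide 1 and 1.01 on slide 2. This call was lost without replicate 1 of wild type (0.85, adjusted p = 0.06) and without replicate 2 of the arrays labelled Δpka1 (0.80, adjusted p = 0.0916).

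The adhesin gene map4 read 7094 and 9382 in the arrays labelled Δpka1, 5566 and 6798 in Δcgs1, 4904 and 5470 in Δppt1, whereas wild type had 4501 and 6328. Its arrays labelled Δpka1 were the highest within each slide and did not overlap the other strains. Its signal was also higher on slide 2 than on slide 1 in every strain, by 0.40 on the log2 scale in the arrays labelled Δpka1 and by 0.49 in wild type. The log2 fold change over wild type was 0.61 (SE 0.21), a value that was not called (adjusted p = 0.142). Within slides it was 0.66 and 0.57, and with slide as a block the call was made at the same fold (adjusted p = 0.00478). Matching the arrays to a common median, which removes the difference between array medians, gave 0.62 (adjusted p = 0.00198). With 1 array left out, the value against wild type ran from 0.37 (without replicate 1 of wild type) to 0.86 (without replicate 2 of wild type), and it was 0.41 without replicate 2 of the arrays labelled Δpka1.

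The protease gene sxa1 was near the top of the scale on every array. It read 59286 and 61858 in the arrays labelled Δpka1, 57928 and 61361 in Δcgs1, 56652 and 60385 in Δppt1, whereas wild type had 56703 and 59601. These values are 86.8% to 94.8% of the highest value on each array. The 4 strains overlapped. The log2 fold change over wild type was 0.06 (SE 0.09, adjusted p = 0.81), with a 95% interval from -0.15 to 0.27. Of the 370 genes with a mean within 10% of the highest value, sxa1 among them, 0 were called higher and 1 lower in this comparison by limma (1 higher and 6 lower with slide as a block), and their log2 fold changes ran from -0.46 to 0.16. These genes were picked for a mean near the top, which by itself leaves little room for a rise. No conclusion on sxa1 is drawn from their counts. Whether the top of the scale limits the response of sxa1 was not tested, and its interval holds for the signal only.

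The comparison with Δcgs1 is between 2 strains that both carry ura4 in working form. It is not a repeat of the comparison with wild type, as Δcgs1 lacks the inhibitor of PKA. A difference can reflect a change in either strain. Again map1, map2 and map3 rose in the arrays labelled Δpka1, 3 of 5 genes, where 4.37% of all genes were called higher. For map2 the log2 fold change was 2.26 (SE 0.18, adjusted p = 0.000512). For map1, which was at background in Δcgs1, the signal was at least 4.05-fold higher (2.06 as fitted, SE 0.16, adjusted p = 0.000392). For map3 it was 0.86 (SE 0.17, adjusted p = 0.0238). The map3 call was lost without replicate 1 of Δcgs1 (adjusted p = 0.118) and without replicate 2 of the arrays labelled Δpka1 (adjusted p = 0.115). The value of map4 was 0.41 (SE 0.21, adjusted p = 0.304), and 4 of 5 genes, map4 included (adjusted p = 0.0159), were called with slide as a block, where 12.5% of all genes were called higher. That value ran from 0.21 without replicate 2 of the arrays labelled Δpka1 to 0.61 without their replicate 1, and it was 0.26 without replicate 1 of Δcgs1. The value of sxa1 was 0.02 (95% interval from -0.19 to 0.23).

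Against Δppt1, which like wild type lacks ura4, the same 3 genes rose in the arrays labelled Δpka1, where 5.04% of all genes were called higher. The rise of map2 was 2.84 on the log2 scale, or 7.16-fold (SE 0.18, adjusted p = 0.000169), and it ranked 22 among all genes. Signal for map1 was at least 4.05-fold higher (2.09 as fitted, SE 0.16, adjusted p = 0.000345). Signal for map3 was 0.94 higher (SE 0.17, adjusted p = 0.0157), a call lost without either array of Δppt1 (adjusted p = 0.0838 and 0.0856) and without replicate 2 of the arrays labelled Δpka1 (adjusted p = 0.0881). The value of map4 was 0.66 (SE 0.21, adjusted p = 0.121), with a call when slide was a block (adjusted p = 0.00376), which made 4 of 5 genes where 16.1% of all genes were called higher. The value of sxa1 was 0.05 (95% interval from -0.16 to 0.26). The 3 comparisons share the arrays labelled Δpka1, so they are not independent of each other.

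**Figure D2:**
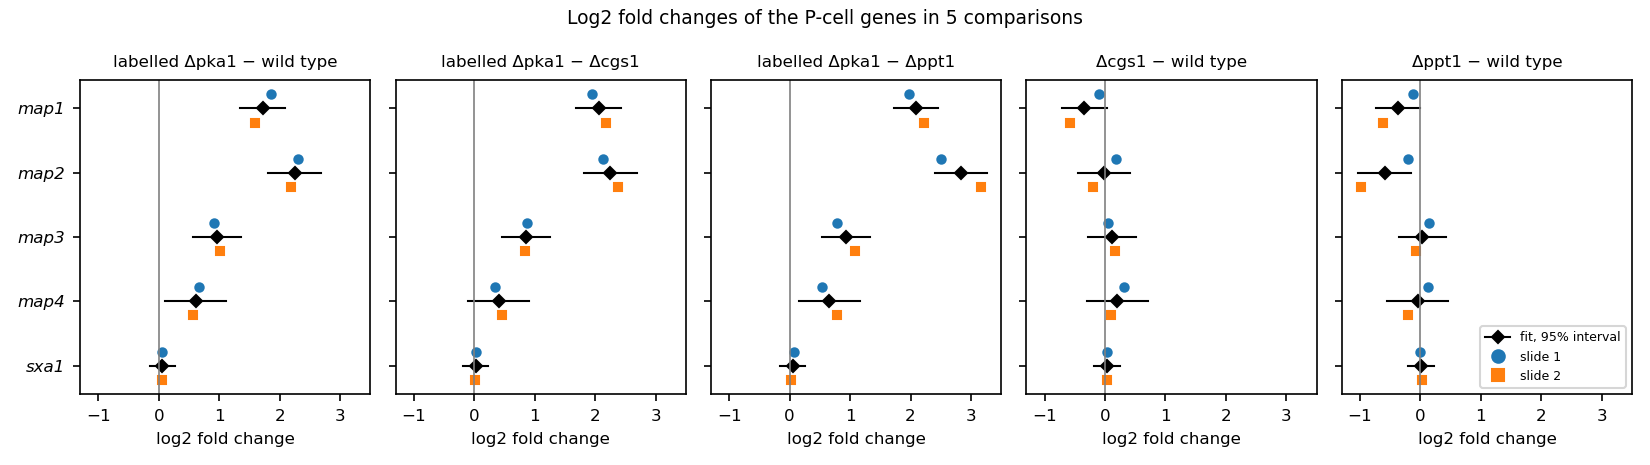
Log2 fold changes of the 5 P-cell genes in 5 comparisons, with diamonds and lines for the fit and its 95% interval, circles for slide 1 and squares for slide 2. In the 3 comparisons of the arrays labelled Δpka1 all points of map1, map2, map3 and map4 lie above 0 on both slides, and in the comparisons of Δcgs1 and Δppt1 with wild type the largest departures are those of map2 and map1 in Δppt1.

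In Δcgs1, where the inhibitor of PKA is missing, 0 of the 5 genes were called against wild type by limma, either way, and 0 with slide as a block, and 0 of the 5 had an unadjusted p under 0.05. Over all genes 0.142% were called, and 0.83% with slide as a block. Δcgs1 carries ura4 in working form and wild type does not, so ura4 and the disruption of cgs1 cannot be told apart here. The value of map2 was -0.01 on the log2 scale (95% interval from -0.44 to 0.42), with 0.18 on slide 1 and -0.20 on slide 2. The value of map3 was 0.11 (95% interval from -0.28 to 0.51) and that of map4 was 0.20 (from -0.30 to 0.71). For sxa1 it was 0.04 (from -0.18 to 0.25). The interval of map4 includes the 0.61 seen in the arrays labelled Δpka1. Both map1 arrays of Δcgs1 were below those of wild type and at background. The fitted difference was -0.34 (SE 0.16, 95% interval from -0.71 to 0.03, adjusted p = 1, and adjusted p = 0.352 with slide as a block). It was -0.10 on slide 1 and -0.58 on slide 2. The mean log2 signal of wild type lay 1.23-fold above the limit, a value that does not count the spread of its arrays. As map1 was already close to background in wild type, only a small drop could be measured.

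In Δppt1, too, 0 of the 5 genes were called by limma against wild type, or with slide as a block, where 1.01% and 12.9% of all genes were called. At an unadjusted p under 0.05 there were 2, map1 and map2, both lower. Signal for map2 differed by -0.59 on the log2 scale (SE 0.18, adjusted p = 0.305, and adjusted p = 0.103 with slide as a block), and the groups did not overlap, but the difference was -0.21 on slide 1 and -0.98 on slide 2. Its 2 Δppt1 arrays differed from each other by 0.48. Signal for map1 was at background in Δppt1. The fitted difference from wild type was -0.37 on the log2 scale (SE 0.16, adjusted p = 0.539, and adjusted p = 0.13 with slide as a block). It was -0.12 on slide 1 and -0.62 on slide 2. As in Δcgs1, the 1.23-fold by which wild type lay above the limit does not count the spread of its arrays. The values of map3 (0.03, 95% interval from -0.36 to 0.43), map4 (-0.04, from -0.55 to 0.46) and sxa1 (0.01, from -0.20 to 0.22) were close to 0.

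The mean signal of map2 was 21656 ± 1780 in the arrays labelled Δpka1, 4531 ± 181 in Δcgs1, 3061 ± 720 in Δppt1 and 4581 ± 658 in wild type (SD, n = 2 each). Its order ran from the arrays labelled Δpka1 through wild type and Δcgs1, which did not differ beyond their spread, to Δppt1. For map1 the means were 10129 ± 954 in the arrays labelled Δpka1, 2420 ± 45.9 in Δcgs1, 2370 ± 65.7 in Δppt1 and 3104 ± 671 in wild type. Wild type came second there, and Δcgs1 and Δppt1, both at background, have no order. For map3 the means were 23587 ± 3762 in the arrays labelled Δpka1, 13043 ± 2229 in Δcgs1, 12256 ± 86.2 in Δppt1 and 12035 ± 1363 in wild type, the last 3 within their spread. For map4 they were 8238 ± 1618 in the arrays labelled Δpka1, 6182 ± 872 in Δcgs1, 5187 ± 400.3 in Δppt1 and 5414 ± 1292 in wild type, where Δcgs1, wild type and Δppt1 followed each other within their spread. The arrays labelled Δpka1 differed from Δcgs1, the next in order, by more than either SD and did not overlap it. For sxa1 they were 60572 ± 1819 in the arrays labelled Δpka1, 59644 ± 2427 in Δcgs1, 58518 ± 2639 in Δppt1 and 58152 ± 2049 in wild type, where all neighbours lay within their spread. Levels of different genes are not set against each other, as each has its own probes.

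The 5 genes also differed in how alike their patterns were. After each gene was centred within each slide, signals over the 8 arrays correlated at r = 0.98 between map1 and map2, 0.969 between map2 and map3, 0.955 between map2 and map4, 0.954 between map1 and map3, 0.944 between map3 and map4 and 0.896 between map1 and map4, a description in which the arrays labelled Δpka1 carry most of the variation. The lowest value was 0.70, between map1 and sxa1. By distance over the 6 within-slide log2 differences of the disruptants from wild type, the closest pair was map3 and map4 (0.60), then map4 and sxa1 (0.87) and then map1 and map2 (0.96). All 6 differences use the same 2 wild-type arrays. For map1, 4 of the 6 come from arrays at background, and sxa1 lay near the top of the scale throughout, so distances that involve them, and the order of the pairs, are only approximate.

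By the same distance, the genes outside the 5 that lay closest to map1 were dak2, a dihydroxyacetone kinase gene (0.49), gto1, a glutathione transferase gene (0.56), and SPBC24C6.09c (0.64). Those closest to map2 were SPBC8E4.05c (0.51), hsp3103, a gene of the DJ-1 family (0.51), and SPCPB16A4.06c (0.61). Signal for hsp3103 averaged 45600 in the arrays labelled Δpka1 and 9554 in wild type (2.26 on the log2 scale). Only 1 gene lay within a distance of 0.5 of map1 and 0 within it of map2. The pattern of map3 was closer to that of other genes, with 28 genes within 0.5 and msy2 (0.19), pof13 (0.33) and tsp0 (0.34) nearest. For map4, 141 genes lay within 0.5, led by SPAC12G12.16c (0.13), sep1, a forkhead transcription factor gene (0.16), and nta1 (0.18). For sxa1 there were 2911 genes, led by por1, SPBC16E9.02c and the hexokinase gene hxk1, so its flat pattern singles out no gene.

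The nearest measured genes on both sides of each P-cell gene were then read in the arrays labelled Δpka1 against wild type. None of the 10 was called in that comparison. Beside map2, sws2 differed by 0.10 on the log2 scale (adjusted p = 0.827) and ura6 by -0.30 (adjusted p = 0.244). Beside map1, sea3 differed by 0.23 (adjusted p = 0.299) and vma4 by -0.05 (adjusted p = 0.959). Beside map3, faf1 differed by -0.58 (adjusted p = 0.0797) and abc2 by -0.17 (adjusted p = 0.726), while his6, whose transcript overlaps that of map3 in the RefSeq table, differed by 0.12 (adjusted p = 0.832). Beside map4, SPBC21D10.08C differed by -0.02 and ucp3 by 0.05. Beside sxa1, rrp9 differed by -0.26 (adjusted p = 0.165) and myh1 by -0.21 (adjusted p = 0.578). With slide as a block, 1 of the 10, sea3, was called higher, and 5 were called lower (ura6, faf1, abc2, rrp9 and myh1), in a fit that called 14.7% of all genes higher and 24% lower. The RefSeq table also lists 2 long noncoding RNAs that overlap map1 and 3 that overlap map4. Label was made from double-stranded cDNA, so signals of a gene and of a transcript on the opposite strand cannot be told apart.

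The M-cell counterparts of these genes were measured in the same h+ cultures. Limma called 4.33% of all genes higher and 4.13% lower in the arrays labelled Δpka1 against wild type. Of 7 measured M-cell-specific genes, 1 rose in that comparison and 0 fell, and the median log2 fold change was -0.14. The gene that rose was mam3, the M-cell adhesin and counterpart of map4, with 21899 and 21398 in the arrays labelled Δpka1, against 13272 and 15058 in wild type (0.61, SE 0.12, adjusted p = 0.0238). The call was lost when any 1 of 5 arrays was left out, namely replicate 1 of wild type, either array labelled Δpka1 or either of Δcgs1 (adjusted p from 0.0565 to 0.124). Signal for mam2, the P-factor receptor and counterpart of map3, read 9290 and 10353 in the arrays labelled Δpka1, against 9217 and 12747 in wild type (-0.14, SE 0.19, adjusted p = 0.776). The M-factor gene mfm1, counterpart of map2, read 3420 and 3577 in the arrays labelled Δpka1, against 3247 and 4698 in wild type (-0.16, SE 0.18, adjusted p = 0.732). The carboxypeptidase gene sxa2 read 4946 and 5335 in the arrays labelled Δpka1, against 4918 and 6705 in wild type (-0.16, SE 0.17, adjusted p = 0.701). No M-cell gene was called in Δcgs1 or Δppt1 against wild type by limma or with slide as a block, and at an unadjusted p under 0.05 there were 0 in Δcgs1 and 0 in Δppt1.

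**Figure D3:**
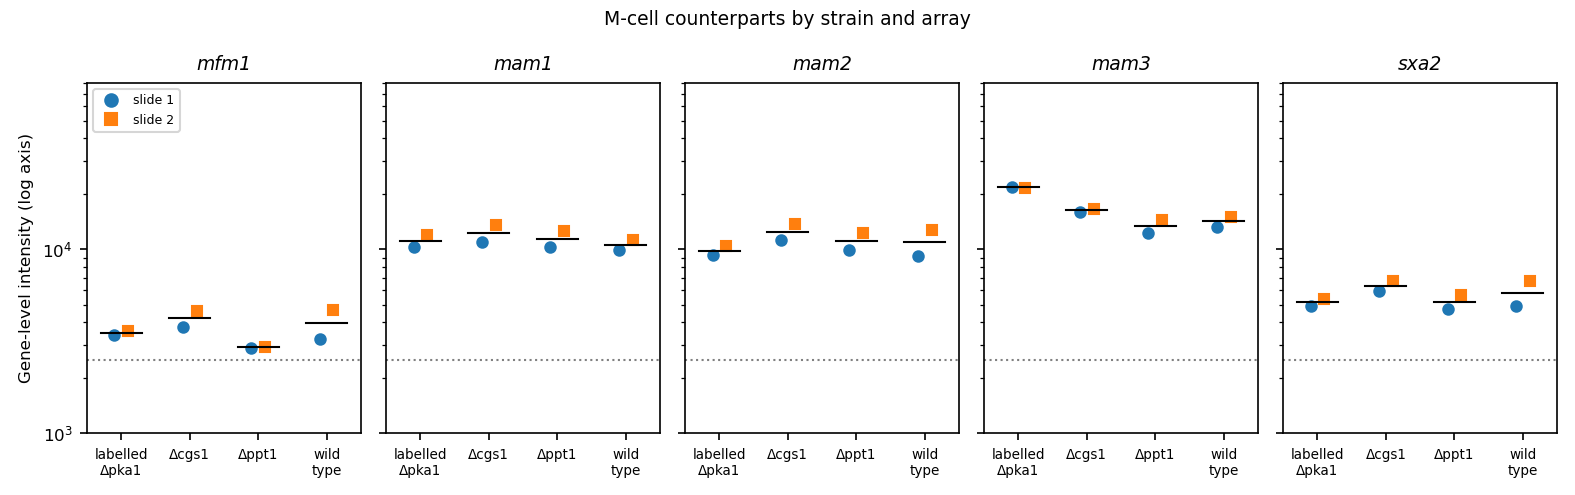
Gene-level intensity (log axis) of 5 M-cell genes on each array, by strain, with circles for slide 1, squares for slide 2 and a bar for the mean of the 2 arrays. The dotted line is the background limit of 2497. In the mam3 panel the arrays labelled Δpka1 lie above the other strains, and in the mfm1, mam1, mam2 and sxa2 panels they lie within the range of the others on at least 1 slide.

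Pheromone signalling downstream of the receptors is shared by both mating types. Of 13 measured genes of that pathway, 6 rose in the arrays labelled Δpka1 against wild type and 0 fell (median 0.44). In the same comparison limma called 4.33% of all genes higher and 4.13% lower. With slide as a block, 7 were called higher, byr1 being the addition (0.44, adjusted p = 0.00167). In that fit 1 was called lower, the Ras gene ras1 (-0.25, adjusted p = 0.0122). It called 14.7% of all genes higher and 24% lower. The 6 called by limma were led by rgs1, which encodes a regulator that turns the G protein off (1.35, SE 0.21, adjusted p = 0.0102). Next came ste4, an adaptor of the kinase Byr2 (1.26, SE 0.16, adjusted p = 0.00424). After it came gpa1, the α subunit of the G protein that Map3 acts through (1.18, SE 0.18, adjusted p = 0.0105). The others were the MAP kinase gene spk1 (0.74), the Ras activator gene ste6 (0.70) and byr2 itself (0.60). Signal for gpa1 read 27519 and 33173 in the arrays labelled Δpka1, against 12245 and 14555 in wild type. The calls were 3 without replicate 1 of wild type, 3 without replicate 1 of the arrays labelled Δpka1 and 2 without their replicate 2, and ste4 and rgs1 were called in every fit that left out 1 array. The call of gpa1 was lost without replicate 2 of the arrays labelled Δpka1 (adjusted p = 0.0724), that of byr2 without any 1 of 7 arrays (adjusted p up to 0.196), and those of spk1 and ste6 without any 1 of 3 (adjusted p up to 0.114 and 0.124). The genes of cell polarity shk1, scd1, scd2 and cdc42 lay between -0.04 and 0.11 and were not called.

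Of 16 measured regulators of mating, 3 rose in the arrays labelled Δpka1 against wild type and 0 fell (median 0.11). Over all genes, limma called 4.33% higher and 4.13% lower. With slide as a block 7 regulators were called higher and 1 lower, where 14.7% of all genes were called higher and 24% lower. Signal for ste11, the activator of mating genes, read 50680 and 55805 in the arrays labelled Δpka1, 23878 and 26922 in Δcgs1, 11223 and 15919 in Δppt1, whereas wild type had 19746 and 23706 (1.30 over wild type, SE 0.19, adjusted p = 0.00771). The meiosis regulator mei2 and the kinase gene ran1, whose product restrains mating, were the others (2.65 and 0.50). In the arrays labelled Δpka1, mei2 lay at 91.3% and 88.6% of the highest value of the array, near the top of the scale like sxa1. The call of ran1 was lost when any 1 of the 8 arrays was left out (adjusted p from 0.0616 to 0.164). The count was 1, mei2, without replicate 2 of the arrays labelled Δpka1, where ste11 had an adjusted p of 0.057. In Δppt1, where map2 read lowest, ste11 differed from wild type by -0.70 (SE 0.19, adjusted p = 0.218, and adjusted p = 0.0144 with slide as a block).

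Over all genes, limma called 4.33% higher in the arrays labelled Δpka1 against wild type. Of 6 measured genes of cell fusion, 2 rose in that comparison and 0 fell (median 0.01). They were fus1, a formin gene (at least 1.55-fold higher, as wild type was at background, adjusted p = 0.00289), and dni2 (1.05, SE 0.14, adjusted p = 0.0054), for which 1 of the 2 wild-type arrays was above the limit. Of 5 genes that process pheromone precursors or are relatives of the 5 genes, 0 were called by limma. At an unadjusted p under 0.05 there were also 0. With slide as a block 1 was called higher, the aspartic protease gene yps1 (0.18, adjusted p = 0.0154). That fit called 14.7% of all genes higher. Signal for krp1, the protease that cuts the P-factor precursor, averaged 38271 in the arrays labelled Δpka1 and 40979 in wild type (-0.10, SE 0.16, adjusted p = 0.812), where the substrate gene map2 rose.

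In the comparison with Δcgs1, the arrays labelled Δpka1 had 6 of 13 pheromone signalling genes, 3 of 16 regulators, 2 of 6 cell fusion genes and 0 of 7 M-cell genes higher by limma, with 0 lower in each group. Among the 7 M-cell genes, 1 had an unadjusted p under 0.05. With slide as a block, 7 pheromone signalling genes were higher and 3 lower, 7 regulators were higher and 3 lower, 2 cell fusion genes were higher and 1 lower, and 1 M-cell gene was higher and 2 lower. That fit called 12.5% of all genes higher and 28.8% lower, where limma without the block called 4.37% higher. Against Δppt1 the numbers higher were 6, 4, 2 and 1 in the same order of groups, again with 0 lower. With slide as a block they were 7, 7, 2 and 1, with 0, 1, 1 and 0 lower. That fit called 16.1% of all genes higher and 22.4% lower, where limma without the block called 5.04% higher. In Δcgs1 against wild type 0 genes of these groups were called by limma or with slide as a block. There 1 regulator, mei2, had an unadjusted p under 0.05, and it was lower. Signal for mei2 differed by -1.26 on the log2 scale (SE 0.18, adjusted p = 0.109, and adjusted p = 0.0566 with slide as a block). The difference was -1.15 on slide 1 and -1.37 on slide 2, and the groups did not overlap. Among all genes, ordered by log2 fold change from the lowest up, mei2 was number 2 in that comparison. In Δppt1 against wild type limma also called 0, where 3 regulators, 1 pheromone signalling gene and 1 processing gene, krp1, had an unadjusted p under 0.05. With slide as a block, 1 regulator was called higher and 2 lower in Δppt1, and 2 pheromone signalling genes were called lower. So was krp1 (-0.52, SE 0.16, adjusted p = 0.301, and adjusted p = 0.00795 with slide as a block). That fit called 5.53% of all genes higher and 7.35% lower.

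**Figure D4:**
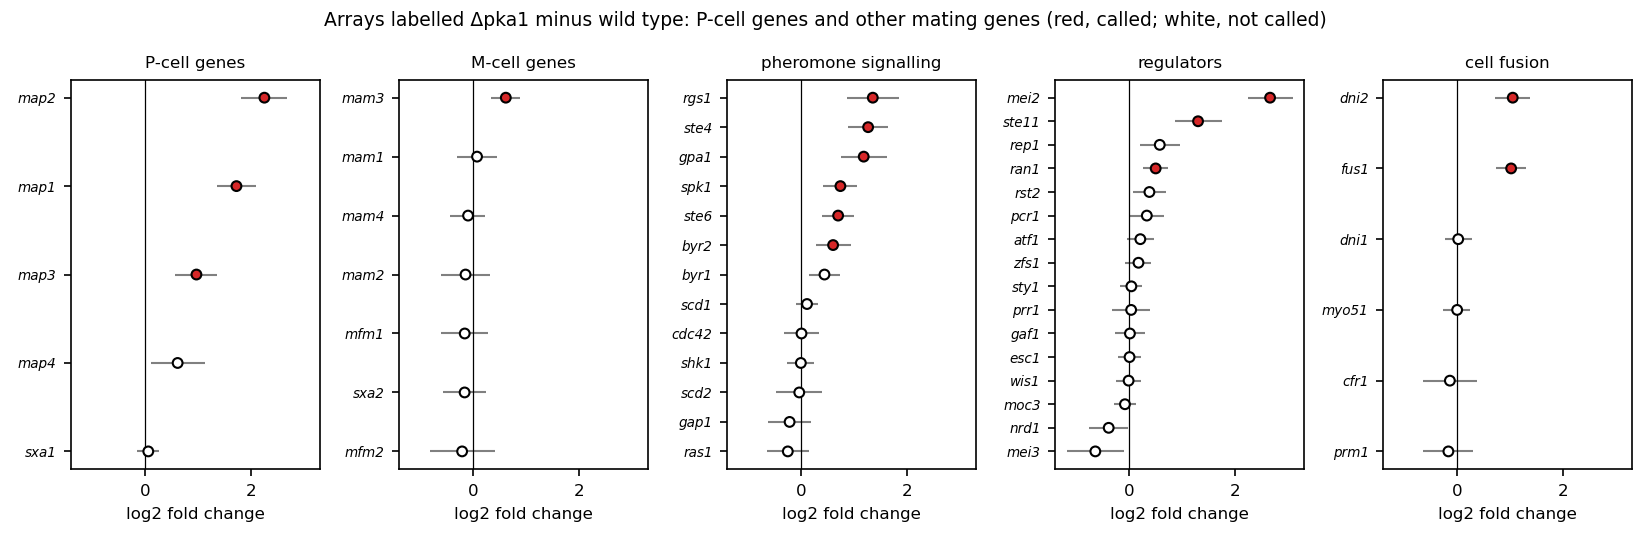
Log2 fold changes of the arrays labelled Δpka1 minus wild type for the P-cell genes and 4 other groups of mating genes, with red points for called genes, white points for genes not called and lines for 95% intervals. Called genes number 3 of 5 P-cell genes, 1 of 7 M-cell genes and 6 of 13 pheromone signalling genes. They also number 3 of 16 regulators and 2 of 6 cell fusion genes. Over all genes 4.33% were called higher and 4.13% lower.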

How the data were processed

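The values deposited by the authors are intensity summaries of the probes of each gene, linear and with 1 value per gene and array. Per the file headers, each comes with an error score, whose scale the headers do not state, and with its number of probes. Probe summary and normalization between arrays: not given in the sources used here. Values in the deposited series table equalled those of the single arrays. Symbols came from the RefSeq table of assembly ASM294v3, which held 4913 of 4940 genes. No sequences were used here, and the files name no genome build.

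Values were taken to log2. limma 3.58.1 in R 4.3.3 fitted 1 mean per strain to all 8 arrays (4 residual degrees of freedom), with two-sided moderated tests and Benjamini-Hochberg adjustment over 4940 genes for each of 5 comparisons. The fit was tested on simulated data with independent errors and a slide shift common to all genes. That test does not cover slide differences that vary between genes. Intervals are 95% intervals from the moderated fit. Deviations of arrays on the same slide correlated in all 6 pairs of strains (r from 0.351 to 0.690), and the titles place each replicate number on 1 slide, so slide was also used as a block (3 residual degrees of freedom). On slide 2 the titles and the deposited tables give the 3 disruptants different array positions, and strains were taken from the labels. Signals on that slide went with the labels, with cgs1 at 1360 in Δcgs1, ppt1 at 1910 in Δppt1 and ura4 at 37383 in the array labelled Δpka1. With 2 arrays per strain, an exact permutation test cannot go below p = 0.333, and the number of arrays limits the precision.

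Each "at least" fold sets both arrays of a group at background to the limit of 2497, which was chosen after the data were seen. The genes, lists, the limit and the rules for naming were chosen with earlier results of these data known. Named were the 5 genes, the targeted and marker genes, the 3 genes nearest in pattern, the nearest measured neighbours on the chromosome, the direct M-cell counterparts, ste11 and up to 4 called genes of a list with the largest change. Further called genes of lists, mat3-Mc and mat3-Mi, byr1, ras1, yps1, krp1 and the polarity genes were named after their values were seen.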

Additional observations from a re-analysis of the deposited data

How the results depend on the processing

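Each result of the 5 genes was recomputed under 24 alternatives, of which 8, a block for slide with 1 array left out, were chosen after the data were seen. The calls of map1 and map2 in the 3 comparisons of the arrays labelled Δpka1 were kept in all 24, with log2 fold changes of map2 over wild type from 2.03 to 2.46. In these comparisons 2 to 4 of the 5 genes were called, map3 being lost in 7 fits that left out 1 array and map4 gained in 34 of 72 fits, among them the replicate block, median centring, quantile and cyclic loess normalization in each comparison. Most of the gains of map4 came from the 8 alternatives chosen after the data were seen. The replicate block changed no other call of the 5 genes. Against wild type, quantile normalization called 1 gene in Δcgs1 (map1, -0.44) and 2 in Δppt1 (map1, -0.23, and map2, -0.47), and a trended, robust prior called 1 in Δppt1 (map2). With 1 array left out, 0 to 1 were called in Δppt1. Signs turned for values near 0, none of them called. With 1 array left out, Δcgs1 against wild type ran from -0.222 to 0.204 for map2, -0.065 to 0.285 for map3, -0.041 to 0.451 for map4 and -0.005 to 0.078 for sxa1. Δppt1 against wild type ran from -0.113 to 0.175 for map3, -0.289 to 0.203 for map4 and -0.037 to 0.055 for sxa1, and map4 was 0.028 with quantile and 0.029 with cyclic loess normalization. The arrays labelled Δpka1 against Δcgs1 ran from -0.019 to 0.064 for sxa1. The cause of these changes was not tested. The planned search of promoter windows was not run. Without 1 wild-type array, the slide difference enters the comparison, and the median of all genes for the arrays labelled Δpka1 was -0.152 without replicate 1 and 0.049 without replicate 2. Over all genes, 418 calls in the arrays labelled Δpka1 against wild type became 181 to 2095, 7 in Δcgs1 became 1 to 69, 50 in Δppt1 became 13 to 698, and against Δcgs1 and Δppt1 511 and 474 became 201 to 2248 and 250 to 1921. Among the other mating genes, those called higher in the arrays labelled Δpka1 against wild type numbered 2 to 7 of 13 for pheromone signalling, 1 to 8 of 16 for regulators, 0 to 1 of 7 for M-cell genes, 1 to 2 of 6 for cell fusion and 0 to 1 of 5 for processing. Signals of map1 at background give only bounds.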
